A study of Mus musculus with 6 samples.

Results

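Genes of cellular iron handling were examined in immortalized mouse fibroblasts (MF) that overexpress *Ms4a15*, the gene of an endoplasmic reticulum membrane protein. The 10 genes were chosen by function: the transferrin receptor *Tfrc*, the ferritin chains *Fth1* and *Ftl1*, the iron transporters *Slc40a1*, *Slc11a2* and *Slc39a14*, the endosomal reductase *Steap3*, the ferritin receptor *Ncoa4*, and the iron regulatory proteins *Aco1* and *Ireb2*. All 10 were found by symbol among the 19078 genes of the table.

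*Fth1*, the heavy chain of ferritin, was 1.53-fold higher in *Ms4a15* OE cells, whereas the difference of *Ftl1*, the light chain, was not past the threshold. The zinc and iron importer *Slc39a14* was 1.56-fold higher, and *Ncoa4*, which brings ferritin to the lysosome, 1.22-fold higher. The exporter *Slc40a1* was lower, as were *Tfrc*, *Steap3* and *Slc11a2*, the genes of the transferrin cycle. All of these changes were under 2-fold (a log2 fold change of 1). Against a change of 1.2-fold, *Tfrc* and *Ncoa4* did not pass. *Steap3* did not pass once the median change of its neighbouring genes was subtracted.

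RNAseq was performed on poly(A)-selected RNA of 3 *Ms4a15* OE and 3 control libraries. Both kinds of cells were male mouse embryonic fibroblasts with a conditional *Gpx4* allele and Cre-ERt2, and both carried a CRISPR activation system. *Ms4a15* OE cells had been infected with a lentivirus for an *Ms4a15* guide, and control cells with an empty lentivirus, although the labels call the control genotype wild type. Both were cell pools under G418 selection, no treatment is named, and nothing says whether the 3 libraries of a group came from separate cultures, so that the p-values measure the spread between these libraries, which may be technical.

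Iron enters most cells bound to transferrin, which its receptor carries into endosomes, where the iron is released, reduced and moved into the cytosol. Ferritin, a shell of heavy and light chains, stores what is not used, and ferroportin, the product of *Slc40a1*, exports it. Iron regulatory proteins hold this balance by binding hairpins in mRNAs, the iron-responsive elements (IREs), when iron is scarce. Binding in a 5′ UTR blocks translation, and binding in the 3′ UTR of *Tfrc* keeps that mRNA from decay. Iron also drives the lipid peroxidation of ferroptosis, the form of cell death studied in these cells. Only mRNA was measured here, neither iron nor protein.

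The IREs are shown because iron regulatory proteins bind such hairpins. Their place differs between the genes that hold one: the 5′ UTR in the ferritin chains and *Slc40a1*, the 3′ UTR in *Tfrc* and *Slc11a2*. The search took a C, then 5 stem bases, the loop CAGTG with any following base, and 5 bases pairing back to the stem. G-T pairs were allowed. The sense strand of annotated protein-coding transcripts (GRCm38) was searched. Each hairpin is given 5′ to 3′ on the strand of the gene, over 28 bases, with the 6 loop bases in capitals.
Fth1, 5′ UTR, chr19:9982733-9982760, + strand: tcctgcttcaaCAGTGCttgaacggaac
Ftl1, 5′ UTR, chr7:45459779-45459806, - strand: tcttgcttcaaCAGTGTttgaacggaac
Slc40a1, 5′ UTR, chr1:45925465-45925492, - strand: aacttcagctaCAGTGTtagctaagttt
Tfrc, 3′ UTR, chr16:32631220-32631247, + strand: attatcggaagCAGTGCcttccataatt
Tfrc, 3′ UTR, chr16:32631599-32631626, + strand: attatcgggagCAGTGTcttccataatg
Tfrc, 3′ UTR, chr16:32631664-32631691, + strand: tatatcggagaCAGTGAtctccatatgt
Tfrc, 3′ UTR, chr16:32631711-32631738, + strand: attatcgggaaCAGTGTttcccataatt
Slc11a2, 3′ UTR, chr15:100395153-100395180, - strand: gccatcagagcCAGTGTgtttctatggt

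With all 5 stem bases paired, 4 of the 10 genes held a match, as did 1.34% of 21901 protein-coding genes. The *Slc11a2* element paired at 4 of 5 stem bases and was found with this looser rule, chosen after the first search, which 10.7% of genes meet. The elements of *Slc11a2*, *Ftl1*, *Slc40a1* and *Tfrc* each lie in 1 annotated protein-coding transcript of their gene, and that of *Fth1* in 4. Other kinds of transcript were not searched. The table counts whole genes and does not separate transcripts with and without an element. The elements of the ferritin chains differed at 2 of 28 bases, C3T and C17T from *Fth1* to *Ftl1* counted from the first base shown, whereas those of *Fth1* and *Slc40a1* differed at 15. A match is a stretch of letters, and binding was not measured.

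Values are given as normalized counts, that is, reads on a gene divided by the size factor of the library. For each gene the authors' deposited table holds the mean over the 6 libraries and, from DESeq2, the log2 ratio of *Ms4a15* OE to control with its standard error (SE). Single libraries were not analysed, so that no SD observed between replicates can be given and overlap between libraries cannot be judged. The mean and the fold change of 2 equal groups give the mean of each group, called the implied mean below. Its error is carried by the SE of the log2 fold change. A gene was taken as higher or lower when its Wald p, adjusted by Benjamini-Hochberg over all 19078 genes, was under 0.05. *Ms4a15* itself had implied means of 1275 (*Ms4a15* OE) and 0.174 (control) normalized counts, the latter under a floor of 3 counts per library, and was at least 449-fold higher.

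At that threshold, 42.9% of the 19078 genes differed between the groups, 21.5% being higher and 21.5% lower. Of the 10 iron genes, 7 passed, 3 higher and 4 lower. All 10 averaged 100 normalized counts or more, and of the 10440 genes at or above that mean 65.6% passed, so that 7 of 10 is close to the share in genes of this abundance. Over the 10 genes the log2 fold changes had a median of -0.03, beside -0.02 in those 10440 genes. The median size of their change, whatever its direction, was 0.35 on the log2 scale, beside 0.24.

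**Figure D1:**
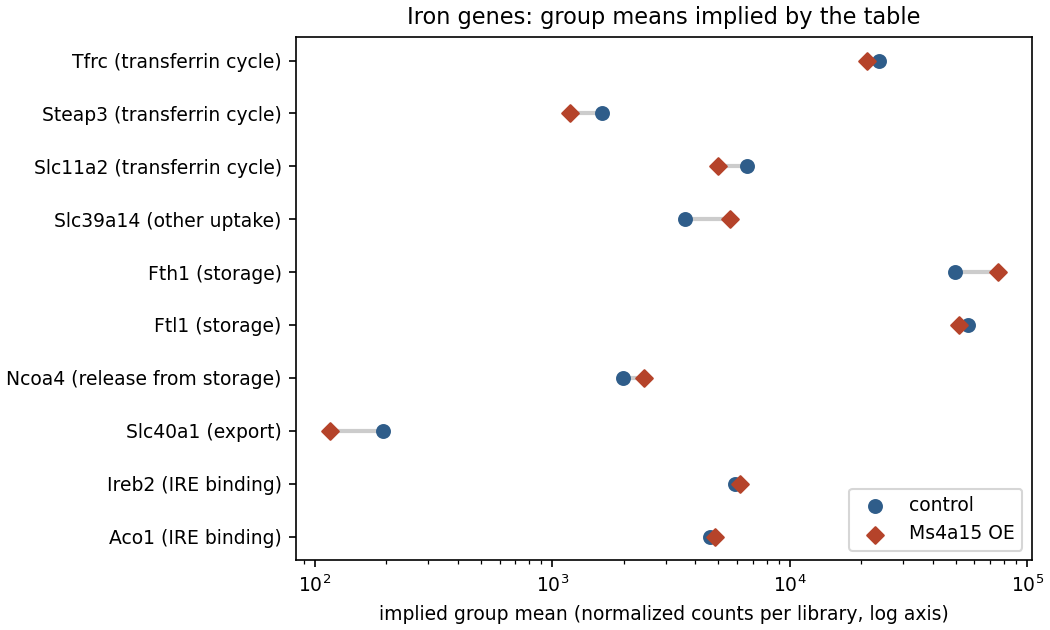
Implied mean normalized counts (log axis) of the 10 iron genes in control and Ms4a15 OE cells, 3 libraries each. Lines join the group means of a gene and carry no error bars, since single libraries were not analysed. The means span from 116 for Slc40a1 in Ms4a15 OE to 75633 for Fth1 in Ms4a15 OE.

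Levels between genes were compared per kilobase of annotated exon, as the mean over both groups. *Ftl1* led with 40297 normalized counts per kilobase, followed by *Fth1* with 18028 and *Tfrc* with 3639. *Aco1* had 1053, *Slc11a2* 913, *Ireb2* 638 and *Slc39a14* 437. *Steap3*, at 245, and *Ncoa4*, at 236, were lower, and *Slc40a1*, at 17.2, was lowest of the 10. By the longest transcript in place of all exons, *Aco1* and *Slc11a2* changed places, as did *Steap3* and *Ncoa4*, while the order of the others stayed. The ratio of *Ftl1* to *Fth1* depends on the length used, since the longest transcript raises the level of *Fth1* 1.68 times and that of *Ftl1* 1.38 times. Together the ferritin chains took 0.284% of all normalized counts.

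*Tfrc* encodes the receptor that carries transferrin-bound iron into endosomes (chromosome 16, 32608920 to 32632794). Its implied means were 21169 (*Ms4a15* OE) and 23842 (control) normalized counts. This is a change of -11.2%, with a log2 fold change of -0.17 (95% confidence interval -0.26 to -0.08, SE 0.04, adjusted p = 0.000366, Wald test with Benjamini-Hochberg adjustment). The change was past the threshold but small: 38.7% of genes with a mean of at least 100 changed by less. Against a change of 1.2-fold in place of no change, the adjusted p of *Tfrc* was 1.

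*Steap3* reduces ferric iron in the endosome so that it can be transported (chromosome 1, 120190757 to 120272705). In *Steap3* the implied means were 1183 (*Ms4a15* OE) and 1614 (control) normalized counts, and control was 1.36 times higher. The log2 fold change was -0.45 (95% confidence interval -0.58 to -0.32, SE 0.07, adjusted p = 9.33e-11). Genes around *Steap3* were lower as well. The median of the 20 genes on each side was -0.33, and with that median subtracted the log2 fold change of *Steap3* was -0.12 (adjusted p = 0.135), which is no longer past the threshold.

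*Slc11a2*, also called Dmt1, moves ferrous iron across the endosomal membrane (chromosome 15, 100387898 to 100425072). The implied means were 4981 (*Ms4a15* OE) and 6617 (control) normalized counts, so that control was 1.33 times higher. Its log2 fold change was -0.41 (95% confidence interval -0.49 to -0.33, SE 0.04, adjusted p = 1.12e-23). The median of its neighbours, 0.09, had the opposite sign. The 3 genes of the transferrin cycle were thus all lower, *Steap3* and *Slc11a2* by similar amounts with overlapping intervals and *Tfrc* by less.

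*Slc39a14*, also called Zip14, imports zinc and iron that is not bound to transferrin (chromosome 14, 70303469 to 70351425). It differed from the transferrin cycle in direction. The implied means were 5619 (*Ms4a15* OE) and 3610 (control) normalized counts, a 1.56-fold difference (95% confidence interval 1.47 to 1.64). The log2 fold change was 0.64 (SE 0.04, adjusted p = 7.76e-55), and 85.2% of genes with a mean of at least 100 changed by less. Its neighbours had a median of 0.17.

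**Figure D2:**
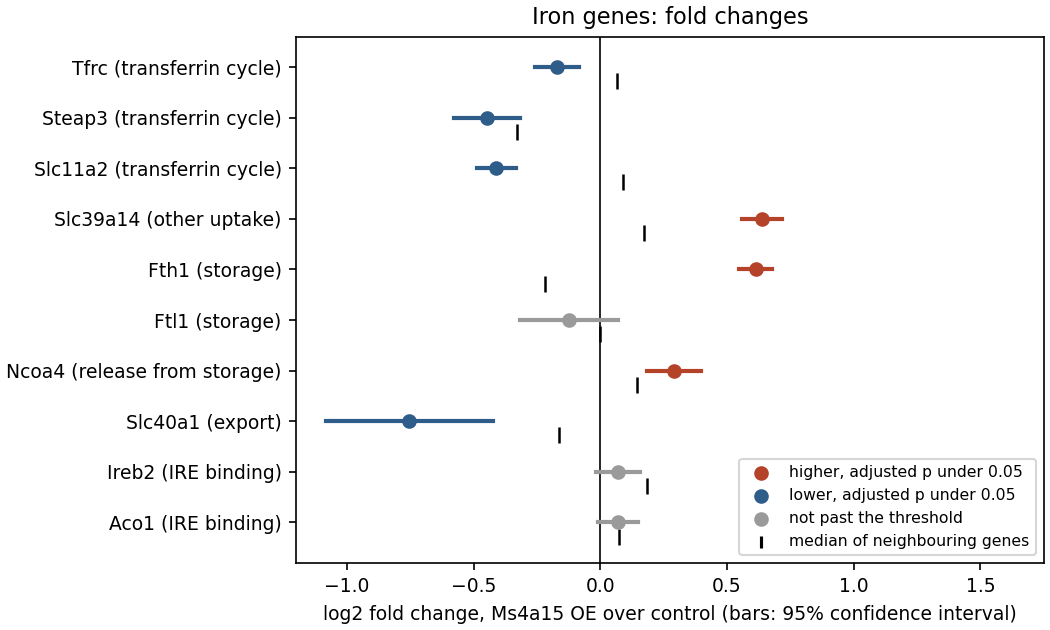
Log2 fold change (Ms4a15 OE over control) for each iron gene, with bars for the 95% confidence interval and short vertical marks for the median of the 20 neighbouring genes on each side. Slc39a14, Fth1 and Ncoa4 lie to the right of 0 and Tfrc, Steap3, Slc11a2 and Slc40a1 to the left, while the intervals of Ftl1, Ireb2 and Aco1 cross 0.

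*Fth1*, whose product oxidizes iron as it enters the ferritin shell, was among the most abundant mRNAs of these cells, at rank 37 of 19078 by mean (chromosome 19, 9980598 to 9985098). Its implied means were 75633 (*Ms4a15* OE) and 49447 (control) normalized counts. The ratio was 1.53 (95% confidence interval 1.46 to 1.60), with a log2 fold change of 0.61 (SE 0.03, adjusted p = 1.32e-73). Because *Fth1* is so abundant, the difference of 26186 normalized counts was the 8th largest rise of any gene in the table. Genes around it moved the other way, with a median of -0.22 for its neighbours and -0.26 over 358 genes of chromosome 19, and *Fth1* lay above 93.6% of the latter.

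*Ftl1* encodes the light chain, which helps to form the iron core (chromosome 7, 45457944 to 45459884). Its implied means were 51657 (*Ms4a15* OE) and 56340 (control) normalized counts. The log2 fold change was -0.13 (SE 0.10, adjusted p = 0.354), and the 95% confidence interval, from -0.32 to 0.07, reaches from a change of -19.8% to one of 4.85%. This uncertainty was not one of counting, since the SE was 19.5 times the SE that counting error alone would give. It exceeded the SE of 98.3% of the 801 genes that averaged 10000 normalized counts or more, and implies a coefficient of variation of 8.37% between libraries, beside a median of 3.10% in those genes. These coefficients are worked back from the SE, whose dispersion is shrunken towards other genes, and are not observed spreads. Sequence near-identical to *Ftl1* is annotated in 6 other genes, with at least 95% identity over 200 bases or more. *Ftl1-ps1* matches 910 of its 968 bases at 99.6% identity. How reads that match several genes were counted is not given in the sources used here, and the part of these copies in the value and SE of *Ftl1* was not tested.

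The log2 fold change of *Fth1* exceeded that of *Ftl1* by 0.74, which is a ratio of heavy to light chain 1.67 times higher in *Ms4a15* OE. The 95% confidence intervals of the chains did not overlap, but the difference itself was not tested, because both were measured in the same libraries and their covariance is not in the table. Summed, the implied means of both chains were 127290 (*Ms4a15* OE) and 105786 (control) normalized counts.

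*Ncoa4* binds the heavy chain and brings ferritin to the lysosome, where its iron is released (chromosome 14, 32159865 to 32179855). The implied means were 2436 (*Ms4a15* OE) and 1993 (control) normalized counts, a ratio of 1.22 (95% confidence interval 1.14 to 1.32). Its log2 fold change of 0.29 (SE 0.05, adjusted p = 4.83e-07) was in the direction of *Fth1* and smaller. Against a change of 1.2-fold, the adjusted p was 1. The pseudogene *Gm6768* matches 1878 of 4065 bases of an *Ncoa4* transcript at 99.9% identity. The SE of *Ncoa4* was 2.17 times that of counting error and its implied coefficient of variation 4.09%, both lower than for *Ftl1*, and how far reads of the copy enter its value was not tested.

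*Slc40a1* encodes ferroportin, the only known iron exporter of mammalian cells (chromosome 1, 45908068 to 45926523). It had the fewest reads of the 10 genes and the largest change. Its implied means were 116 (*Ms4a15* OE) and 195 (control) normalized counts, and control was 1.69 times higher. The log2 fold change was -0.75 (95% confidence interval -1.08 to -0.42, SE 0.17, adjusted p = 2.86e-05), and 88.6% of genes with a mean of at least 100 changed by less. The SE was 1.71 times that of counting error, beside 6.98 times for *Fth1*, so that depth weighs more on *Slc40a1*. Depth was not its only limit, since its implied coefficient of variation was 11.6%, beside 8.37% for *Ftl1*. The median of its neighbours was -0.16.

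*Ireb2* and *Aco1* encode the iron regulatory proteins, of which *Aco1* is also the cytosolic aconitase when it holds an iron-sulfur cluster. *Ireb2* (chromosome 9, 54863789 to 54912530) had implied means of 6191 (*Ms4a15* OE) and 5897 (control) normalized counts, with a log2 fold change of 0.07 (95% confidence interval -0.02 to 0.16, SE 0.04, adjusted p = 0.223). *Aco1* (chromosome 4, 40143081 to 40198338) had 4850 and 4618, with a log2 fold change of 0.07 (95% confidence interval -0.01 to 0.15, SE 0.04, adjusted p = 0.165). Neither passed the threshold, and the intervals end at a rise of 11.6% for *Ireb2* and 11.0% for *Aco1*. Relative to the median of its neighbours, 0.18, *Ireb2* turned to -0.11 (adjusted p = 0.0295, Wald test). That p-value leaves out the error of the median and is thus too small.

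Set beside their elements, the genes with an IRE in the 5′ UTR did not share a direction: *Fth1* was higher, *Slc40a1* lower, and *Ftl1* not past the threshold. Binding there acts on translation, which mRNA levels do not show. Both genes with one in the 3′ UTR were lower, *Tfrc* with a log2 fold change of -0.17 and *Slc11a2*, found with the looser rule, with -0.41. Control of these mRNAs by their elements was not tested. Among the genes with no match under either rule, *Slc39a14* and *Ncoa4* were higher and *Steap3* lower.

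**Figure D3:**
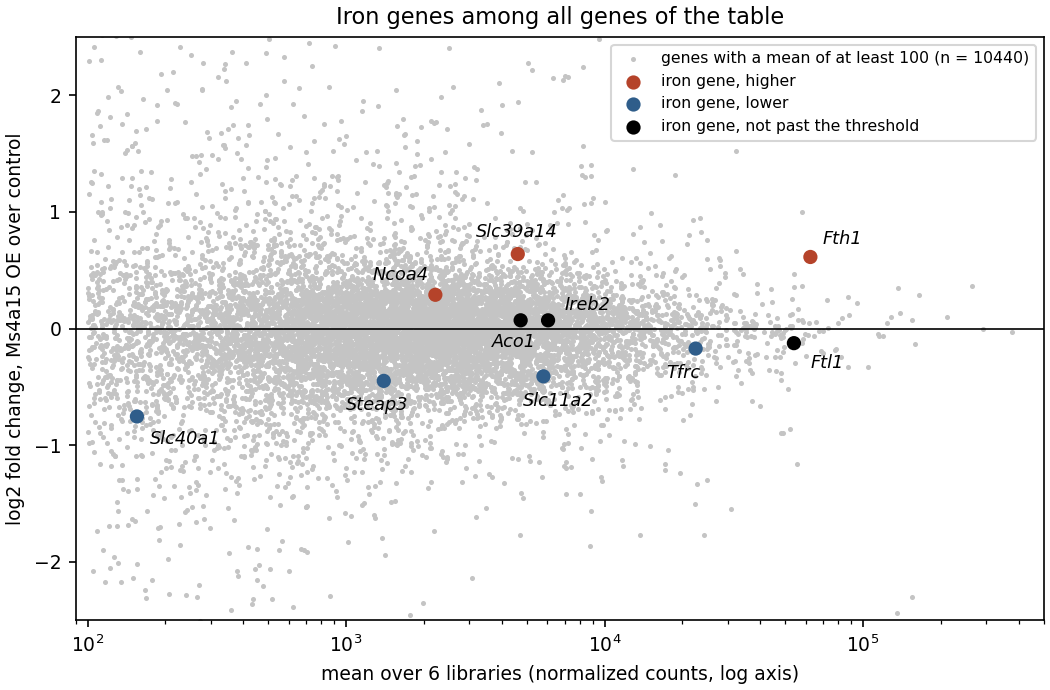
Log2 fold change (Ms4a15 OE over control) against the mean over the 6 libraries (normalized counts, log axis) for the 10440 genes averaging 100 or more (grey) and the iron genes (coloured by direction). Of the 10440 genes, 184 lie outside the plotted range of 2.5 in either direction. All 10 iron genes lie between -0.75 and 0.64, and Fth1 and Ftl1 lie at the far right.

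The wider pathway was followed in 5 lists by function, with 70 of 83 genes found. Of these, 21 were higher, 18 lower and 31 not past the threshold, so that 55.7% passed, beside 42.9% of all genes and 65.6% of those averaging 100 normalized counts or more. The median log2 fold change was 0.02. In 58 of the 70 genes the mean was at least 100 normalized counts, and in 10 it was under 10. Against a change of 1.2-fold, 14 of the 70 passed, 10 higher and 4 lower. In the same test 18.8% of all genes passed, 9.43% being higher and 9.39% lower, and 25.5% of those averaging 100 or more. The share past the threshold in each list is given below, to be read against 42.9% and 65.6%.

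Among the other genes of uptake and reduction, 5 of 13 were higher, 3 lower and 5 not past the threshold (61.5% past it). *Lcn2*, which binds bacterial iron carriers, had implied means of 575 (*Ms4a15* OE) and 10.0 (control) normalized counts, a 57.3-fold difference (log2 fold change 5.84, SE 0.28, adjusted p = 6.5e-98). *Slc11a1*, a relative of *Slc11a2* in the phagosomes of macrophages, had 168 and 77.6 (log2 fold change 1.11, SE 0.18, adjusted p = 6.24e-09). Paralogs of *Steap3* moved against it. *Steap1* had 2952 and 1435 (1.04, SE 0.05, adjusted p = 3.69e-82), and *Steap2*, a metalloreductase, 5601 and 2992 (0.90, SE 0.05, adjusted p = 8.98e-83). Chosen after the values were seen, the mitochondrial iron importers went apart, with a log2 fold change of 0.84 for *Slc25a37* (adjusted p = 2.21e-62) and -0.41 for *Slc25a28* (adjusted p = 6.38e-10).

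Of 11 genes of storage, export and systemic control, 3 were higher, 2 lower and 6 not past the threshold (45.5% past it). *Heph*, a ferroxidase that works with ferroportin, had implied means of 33.1 (*Ms4a15* OE) and 577 (control) normalized counts, so that control was 17.5 times higher (log2 fold change -4.13, SE 0.18, adjusted p = 2.82e-116). *Cp*, another ferroxidase, had 1281 and 1143 (0.16, SE 0.07, adjusted p = 0.0382). *Heph* thus fell with *Slc40a1*, and *Cp* did not. *Fbxl5*, which marks *Ireb2* protein for breakdown, was at 0.21 (SE 0.05, adjusted p = 0.000111), and *Pcbp2*, an iron chaperone that delivers iron to ferritin, at 0.17 (SE 0.03, adjusted p = 1.29e-07). *Pcbp1*, of the same list and chosen after the values were seen, went the other way, at -0.12 (SE 0.04, adjusted p = 0.0163).

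In heme synthesis, 1 of 8 genes was higher, 3 were lower and 4 were not past the threshold, so that 4 of 8 passed. *Alas1*, the first enzyme of the path, was at a log2 fold change of -0.15 (SE 0.06, adjusted p = 0.0191). *Cpox* was at -0.20 (adjusted p = 0.000247), *Ppox* at -0.23 (adjusted p = 0.0189) and *Uros* at 0.32 (adjusted p = 0.0151). These are enzymes of later steps.

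In heme transport and breakdown, 5 of 11 genes were higher, 3 lower and 3 not past the threshold (72.7% past it). *Blvrb*, a biliverdin reductase, had implied means of 2531 (*Ms4a15* OE) and 1492 (control) normalized counts (log2 fold change 0.76, SE 0.07, adjusted p = 2.15e-24). *Abcb6*, a porphyrin transporter, was at 0.58 (adjusted p = 1.8e-22), the mitochondrial transporter *Abcb10* at -0.33 (adjusted p = 5.75e-08) and *Slc46a1*, a folate and heme importer, at -0.46 (adjusted p = 0.0013). *Hmox1*, which frees iron from heme, was chosen after the values were seen. Its implied means were 7998 (*Ms4a15* OE) and 9108 (control) normalized counts (-0.19, SE 0.04, adjusted p = 9.53e-05), and so did not rise with *Fth1*.

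In iron-sulfur cluster assembly, 7 of 27 genes were higher, 7 lower and 13 not past the threshold (51.9% past it). *Ciapin1*, with 1960 (*Ms4a15* OE) and 3019 (control) normalized counts, was at a log2 fold change of -0.62 (SE 0.05, adjusted p = 4.41e-29), and its partner in cytosolic assembly *Ndor1* at 0.45 (SE 0.06, adjusted p = 6.82e-15). *Fam96b*, of the cytosolic targeting complex, was at -0.46 (adjusted p = 9.56e-11), and *Nfu1*, a mitochondrial cluster carrier, at 0.42 (adjusted p = 8.23e-16). Directions thus differed within the cytosolic branch.

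**Figure D4:**
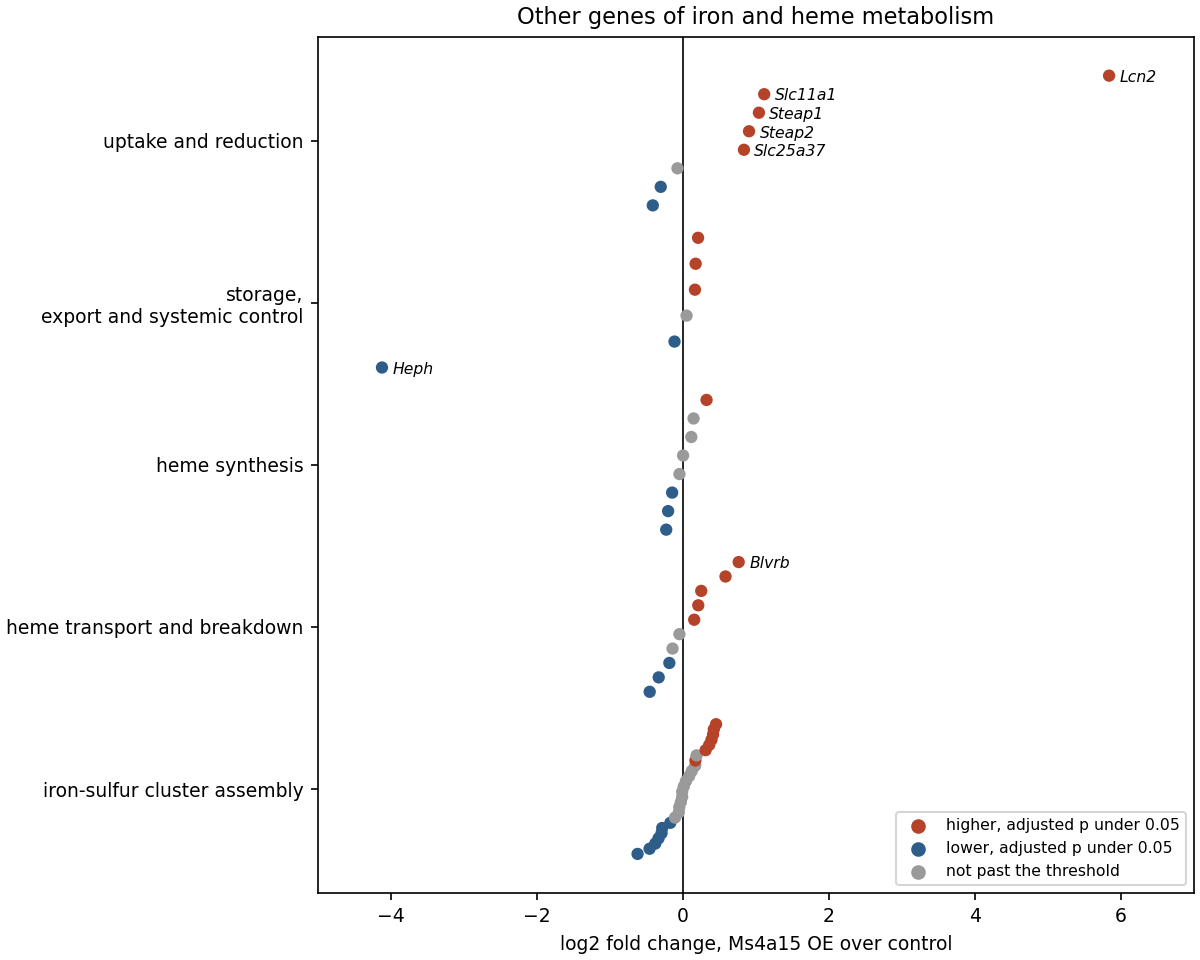
Log2 fold change (Ms4a15 OE over control) for the 58 further iron and heme genes that averaged 100 normalized counts or more, in 5 lists, with 1 point a gene. Lcn2, at 5.84, and Heph, at -4.13, lie far from the others, and most genes of heme synthesis and iron-sulfur cluster assembly lie close to 0.

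The fibroblast label was checked against its markers, of which 9 of 10 were found, 3 higher, 4 lower and 2 not past the threshold. *Vim* was at 112480 (*Ms4a15* OE) and 117789 (control) normalized counts and did not pass the threshold (adjusted p = 0.117). *Col1a1* was at 5659 and 128302, and *Pdgfrb* at 283 and 4018. The 3 higher ones were *Thy1*, at 1349 and 834, *Pdgfra*, at 335 and 220, and *Dcn*, at 23.6 and 0.624, of which the last is under the floor. The collagens *Col1a1* and *Col1a2* make up most of the difference in the summed level of the markers, which was 163144 in *Ms4a15* OE and 486669 in control. Of 7 macrophage markers found, *Lyz2*, *Mrc1* and *Cd68* were higher in *Ms4a15* OE and 4 were not past the threshold. Their summed level was 1643 in *Ms4a15* OE and 147 in control, while the defining marker *Ptprc* was at 7.44 and 14.8, *Itgam* at 6.25 and 5.32, and *Fcgr1* under the floor in both groups. *Csf1r*, at 18.7 and 7.82, lay in the direction of the higher markers (adjusted p = 0.0665, Wald test). The levels of *Lyz2*, *Mrc1* and *Cd68* moved with *Lcn2* and *Slc11a1*, and their part in those values was not tested. In bulk RNA, a change in the share of cells of a kind and a change in RNA per cell cannot be told apart. None of 4 erythroid and 3 hepatocyte markers found passed the threshold in this Wald test, with 1 of these 7 at an unadjusted p under 0.05, and of 5 epithelial markers 1, *Krt8*, did, at 17.3 and 4.41.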

How the data were processed

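Poly(A)-selected RNA of 3 *Ms4a15* OE and 3 control libraries was sequenced in pairs. Reads were aligned to mm10 and assigned to genes with HTSeq by the authors, who compared the groups with DESeq2. The study's methods name STAR, whereas its processing notes name TopHat, and the sources also differ on the RNA kit and the read length. The signal in the deposited table is the authors' mean of size-factor normalized counts over 6 libraries. The log2 fold changes and their standard errors in the deposited table come from the authors' DESeq2 fit and were used as they stand. The authors' p-values in the deposited table were not used. In the authors' DESeq2 fit the dispersions behind the standard errors are shrunken towards those of other genes.

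Two-sided Wald p-values were recomputed from each log2 fold change and its standard error, adjusted by Benjamini-Hochberg over 19078 genes with a threshold of 0.05, and given with 95% confidence intervals. The Wald step was run on fold changes simulated with the deposited standard errors. It recovered 104 of 115 log2 changes of 0.5 and 85 of 85 changes of 1, and called 13 unchanged genes. Because the simulation takes those standard errors as right, it cannot check them. Tests planned on counts were not run. Size factors, read from genes with 1 read in 1 library, ran from 0.887 to 1.14 and total reads were not analysed, so that depth is known only in relative terms. The floor was 3 counts per library (3.17 normalized counts in *Ms4a15* OE, 2.84 in control) and covers counting error only. Positions, exon lengths and transcripts came from GENCODE M21, and RefSeq positions for other symbols, both on GRCm38, the assembly called mm10. Of the 19078 genes, 16641 were located, among them 97.0% of those with a mean of at least 100. Neighbours were the 20 located genes on each side with such a mean. Their median was subtracted as if known without error, with the SE of the gene unchanged. Adjustment then ran over the genes with such a median.

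The genes and lists were chosen with earlier results of these data known. The genes named are the 10 iron genes, *Ms4a15*, cell type markers and, from each of 5 lists, up to 4 with the largest log2 fold change in either direction among those past the threshold with a mean of at least 100. *Slc25a37*, *Slc25a28*, *Hmox1* and *Pcbp1* were added after their values were seen. Alternatives were a minimum log2 fold change of 1, a test against a 1.2-fold change, adjustment over genes with a mean of at least 10, centring on the median, subtraction of the neighbours and, for levels, the longest transcript. The comparison with genes with a mean of at least 100, the looser pairing rule and the RefSeq positions were chosen after seeing the data. Python 3.11.15, numpy 2.4.6, pandas 2.3.3, scipy 1.17.1 and matplotlib 3.10.9 were used.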

Additional observations from a re-analysis of the deposited data

How the results depend on the processing

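Of the 10 iron genes, 7 passed the threshold with adjustment over genes with a mean of at least 10, with centring on the median and with subtraction of the neighbouring genes, 5 against a change of 1.2-fold, which leaves out *Tfrc* and *Ncoa4*, and 0 when a log2 fold change of at least 1 was also required. Without that minimum, 7 had an unadjusted Wald p under 0.05. Against a change of 1.2-fold, 25.5% of genes with a mean of at least 100 passed, and 18.8% of all genes. The 5 of 10 iron genes thus lay above both shares. In the main test the 7 of 10 also lay above the matching shares, 65.6% and 42.9%, but close to the former. These differences were not tested. For the minimum of 1 and the other alternatives no share over all genes was computed, so that those counts have no background. With the neighbours subtracted, *Steap3* was no longer past the threshold (-0.12, adjusted p = 0.135, Wald test). In that setting 2 genes changed sign: *Ireb2*, which then passed (-0.11, adjusted p = 0.0295), and *Aco1* (-0.0022, adjusted p = 0.98). The p-values after subtraction leave out the error of the neighbours' median. *Fth1*, *Slc39a14*, *Slc11a2* and *Slc40a1* kept their direction and passed in these alternatives other than the minimum of 1, with *Slc40a1* at adjusted p-values up to 0.0202. The further iron lists gave 39 genes past the threshold, 41 over genes with a mean of at least 10, and 14 against a change of 1.2-fold. The longest transcript raised the levels per kilobase by 1.11 to 2.29 times. Normalization by another tool and leaving out single libraries were not run, as both need values of single libraries. No paired analysis was possible because, although the labels number the replicates in both groups, the columns used are summaries over libraries. Depth limits *Slc40a1* most among the 10. *Ftl1* and *Ncoa4* have near-identical copies, whose effect on their values was not tested.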
